A study of Homo sapiens with 8 samples.

Results

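The genes described here are 29 transcriptional targets of the tumour suppressor p53, followed by RNA sequencing in 22Rv1, an established human line from a castration-resistant prostate cancer. They were chosen by name (MDM2, MDM4, PPM1D, CCNG1 and FBXO22; BBC3, FAS, TNFRSF10B, EDA2R, APAF1, AEN, PHLDA3, TP53INP1 and TRIAP1; BTG2, GADD45A, PLK2, PLK3 and ZMAT3; DDB2, XPC, POLH and RRM2B; SESN1, TIGAR, FDXR, GDF15, TP53I3 and SPATA18), out of 58735 Ensembl genes counted in each library. The transcript of p53 itself, CDKN1A and BAX are not analysed here. The MARK3i group is 4 libraries of cells given PCC0208017, which the submitters describe as an inhibitor of the kinase MARK3, and the Control group is 4 libraries of cells given DMSO, the vehicle. The labels name the same line for both groups and no genetic alteration. The sources used here state neither dose nor duration, nor whether replicates were separate cultures. The p-values therefore weigh each group difference only against the spread between these libraries, which may be technical. The files hold no measurement of MARK3 activity or p53 protein, and MARK3 inhibition and any further action of PCC0208017 cannot be told apart.

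p53 is a DNA-binding transcription factor that accumulates when DNA is damaged, when nucleolar or replication stress occurs, or when its ubiquitin ligase MDM2 is blocked. It binds a pair of short half-sites near its targets, whose products repair DNA, hold the cell cycle, trigger death through mitochondria or surface receptors, adjust metabolism, and feed back on p53 itself. Many of these genes are also under the control of other factors, so a target's transcript is not a reading of p53 alone.

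Levels are in CPM (a gene's counts scaled to the same total in every library, with TMM factors), and a fold change is MARK3i over Control on the log2 scale, fitted with edgeR and given ± its standard error with n = 4 libraries per group. A gene was called at a Benjamini-Hochberg adjusted p under 0.05 over all genes tested. Total counts ranged from 13517289 to 21271127 in MARK3i and from 12672817 to 13386143 in Control libraries. Among all 16452 tested genes 58% were called, 29.8% higher and 28.3% lower in MARK3i, so a call by itself sets no gene apart here. Each of 10 luminal prostate and epithelial markers averaged at least 1 CPM over the 8 libraries, with a sum of 1380 to 1510 CPM in MARK3i and 2150 to 2330 CPM in Control libraries, and 8 of the 10 were called lower (median −1.59). Among 7 fibroblast markers 2 averaged at least 1 CPM, COL1A1 and LUM, and the list's sum was 15 to 21.9 CPM in MARK3i and 12.7 to 18.1 CPM in Control libraries, with FAP at 0 counts throughout. COL1A1 was called higher (18 CPM in MARK3i and 11.3 CPM in Control libraries, 0.68 ± 0.13) and LUM lower (0.509 CPM in MARK3i and 3.003 CPM in Control libraries, −2.62 ± 0.29). None of 6 endothelial markers reached 1 CPM, the list's sum was 0.138 to 0.35 CPM in MARK3i and 0.078 to 0.475 CPM in Control libraries, and CDH5 and PECAM1 had 0 counts. The part of these lists in the results was not tested, and in bulk RNA fewer cells expressing a gene and less RNA per cell cannot be told apart. Control replicates 1 and 2 resembled each other, as did 3 and 4 (the labels give no batch). Chi-square per degree of freedom was 1.74 and 1.71 within these pairs and 3.48 to 4.68 across them, and 3.32 to 9.47 between MARK3i libraries. It was computed on raw counts, so it rises with depth for the same relative difference. MARK3i replicate 2, the deepest library, was in both the lowest and the highest of the MARK3i values. The Control pairs did not overlap for 19 of the 28 tested p53 targets (67.9%), against 51.8% of all tested genes.

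The p53 targets split, with more of them lower than higher. Of the 29 genes, 28 were tested and 21 (75%) were called, 15 lower (53.6%) and 6 higher (21.4%), and 7 did not pass. Of all tested genes 58% were called, 28.3% lower and 29.8% higher. The targets were chosen with earlier results of these data known, so their shares, here and below, describe the list only. The median log2 fold change of the 28 was −0.17, beside 0.02 for all tested genes. All 4 MARK3i libraries lay below all 4 Control libraries for 12 of the 28 and above them for 5, which is 60.7% beyond in either direction, against 51% of all tested genes. The largest fall, that of GDF15, was −1.88 and the largest rise, that of RRM2B, was 0.71. Of all tested genes 6.09% were called lower by at least 1 on the log2 scale and 4.24% higher by as much (10.3% in either direction), and among the p53 targets this size was passed by 3 falls, GDF15, AEN and EDA2R, and by 0 rises. Scaling moved these counts together with those of all genes. On the TMM scale 4897 of all tested genes were called higher and 4652 lower. With total counts, where the median of all tested genes was 0.13, 6274 were called higher and 3596 lower, and of the targets 9 were higher and 10 lower with a median of −0.06. With upper-quartile factors 5312 of all tested genes were higher and 4335 lower, and of the targets 7 were higher and 11 lower. Small changes are therefore stated on the TMM scale. The 5 rises and 10 falls that kept their call in each of 20 alternative settings were APAF1, GADD45A, POLH, RRM2B and SESN1, and AEN, BBC3, BTG2, DDB2, EDA2R, FDXR, GDF15, PLK3, SPATA18 and TNFRSF10B.

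**Figure D1:**
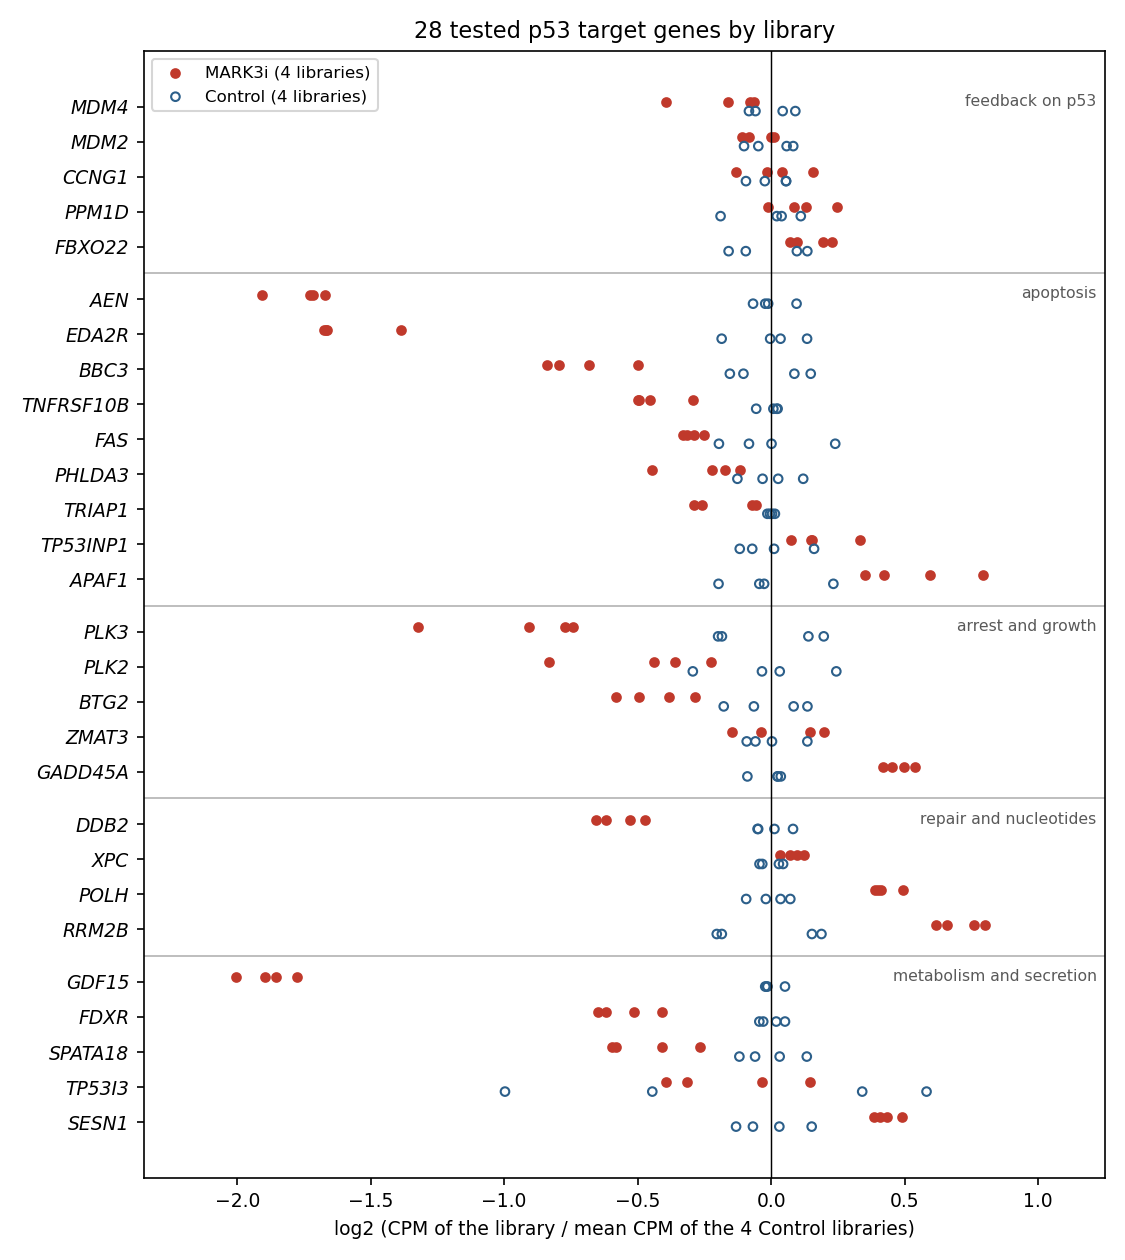
Each point is 1 library, placed at the log2 ratio of its CPM to the mean CPM of the 4 Control libraries (x axis), for the 28 tested p53 targets (rows, grouped by function), with MARK3i libraries filled and Control libraries open. GDF15, AEN and EDA2R stand far to the left of their controls in all 4 MARK3i libraries, RRM2B and APAF1 to the right, and the feedback genes at the top overlap with theirs.

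The half-site consensus of p53 (10 letters, equal to its own reverse complement, so that both strands are read at once) was searched in RefSeq promoter windows of the GRCh38.p14 assembly, which run from 250 bases before to 50 after each annotated start. Windows were found for 23 of the 29 genes. At least 1 exact half-site was present for 6 of these 23 genes (26.1%), against 8.06% of all genes with a window. A pair of half-sites, each with at most 1 mismatch, its central C and G intact and a spacer of 0 to 13 bases, was present for 2 of 23 (8.7%), against 2.28% of all genes. Among the other p53 targets listed further on, 14.3% of genes with a window had an exact half-site and 7.14% a pair. Genes with more windows have more chances of a match, and the 23 genes had 35 windows while 27305 genes had 35116. Per window, an exact half-site was present in 17.1% for the 23 genes and 6.63% for all genes, and a pair in 8.57% and 1.84%. Of the 3 windows with a pair for the 23 genes, more than 1 held the same MDM2 site. The genes were chosen as p53 targets, so a higher share of matches than in all genes may follow from that choice. A match describes the letters in this window and is not a measured binding site. The stretches printed with the genes were chosen because they hold the matches. Capitals mark exact half-sites or, for MDM2, the 2 half-sites of the pair. Other letters that match the half-site with 1 mismatch were left small.

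Most feedback regulators of p53 did not pass the test. Of 5 genes, 1 was called lower and 0 higher (20% called, against 58% of all tested genes), and the median of the 5 was 0.02. MDM2, the ubiquitin ligase that p53 induces and that marks p53 for degradation, is a classical target of p53. MDM2 (ENSG00000135679, chromosome 12, 68808177 to 68845544, plus strand) had 117, 110.1, 117 and 108 CPM in MARK3i replicates 1 to 4, against 123, 121, 109 and 113 CPM in Control replicates 1 to 4. The groups overlapped. The fold change was −0.04 ± 0.06 (adjusted p = 0.55), with an approximate 95% interval of −0.16 to 0.07. Its sign moved with the adjustment, since it was 0.06 with total counts and passed the test as a fall of −0.16 (adjusted p = 0.00582) when each library's trend on GC content was removed. The downstream MDM2 promoter, which lies in the first intron and is the one p53 is known to activate, held the pair of half-sites, adjoining each other, with 2 mismatches in all (chr12:68808883-68808982, plus strand).

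MDM2: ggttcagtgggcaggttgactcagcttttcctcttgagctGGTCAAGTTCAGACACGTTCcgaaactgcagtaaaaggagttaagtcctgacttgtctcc

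CCNG1, which encodes cyclin G1, a partner of the phosphatase PP2A that acts on MDM2, had 206, 169, 190.3 and 183 CPM in MARK3i replicates 1 to 4, against 192, 192, 173 and 182 CPM in Control replicates 1 to 4. Its change was 0.02 ± 0.06 (adjusted p = 0.849, approximate 95% interval −0.11 to 0.14), with overlapping groups. PPM1D, the phosphatase WIP1 that switches off damage signalling to p53, averaged 33.2 ± 2.48 CPM in MARK3i and 30.7 ± 2.66 CPM in Control libraries (SD), and its change of 0.12 ± 0.08 did not pass (adjusted p = 0.229). FBXO22, an F-box subunit of a ubiquitin ligase, averaged 56.5 ± 2.95 CPM in MARK3i and 51.0 ± 5.05 CPM in Control libraries (SD; 0.15 ± 0.07, adjusted p = 0.093). Both PPM1D (0.22, adjusted p = 0.0239) and FBXO22 (0.25, adjusted p = 0.00738) passed the test as rises with total counts, and FBXO22 also with upper-quartile factors (adjusted p = 0.0364) and without Control replicate 1 (0.19, adjusted p = 0.0417). MDM4, the MDM2 relative that binds p53 and blocks its transactivation, was the 1 called gene of this group. It had 104, 122, 131 and 129 CPM in MARK3i replicates 1 to 4, against 131, 129, 141 and 145 CPM in Control replicates 1 to 4, a change of −0.17 ± 0.07, adjusted p = 0.0364, with overlapping groups and MARK3i replicate 1 the lowest. The MDM4 call ended without MARK3i replicate 1 or 2 or Control replicate 3 or 4 (adjusted p = 0.0527 to 0.115), with upper-quartile factors (adjusted p = 0.0953) and with total counts (−0.06, adjusted p = 0.474), among others. The call was kept in 13 of 20 alternatives, with adjusted p up to 0.474 over them.

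Among genes of cell death all 9 were called, 7 lower and 2 higher, with a median of −0.30. The shares among all tested genes were 58% called, 28.3% lower and 29.8% higher. Of the 9, the calls of FAS, PHLDA3, TP53INP1 and TRIAP1 did not hold in every alternative, as given below. With total counts 4 of the 9 were lower and 2 higher, in a setting that added rises and removed falls among all tested genes. With the GC adjustment 6 of the 9 were lower and 1 higher, beside 4681 lower and 5220 higher of all tested genes. The largest fall was that of AEN, which encodes a nuclease that digests DNA during apoptosis. AEN (ENSG00000181026, chromosome 15, 88621337 to 88632281, plus strand) had 21.0, 21.8, 21.2 and 18.5 CPM in MARK3i replicates 1 to 4, against 74.2, 68.4, 69.0 and 66.3 CPM in Control replicates 1 to 4. All 4 MARK3i libraries lay far below all 4 Control libraries, and the gene was 3.36-fold lower (−1.75 ± 0.07, adjusted p = 5.15e-16). Its promoter held 1 exact half-site, 25 to 34 bases before the annotated start, in the stretch shown (chr15:88621266-88621336, plus strand).

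AEN: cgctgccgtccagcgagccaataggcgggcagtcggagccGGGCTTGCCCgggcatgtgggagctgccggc

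EDA2R, a receptor of the tumour necrosis factor receptor family that binds ectodysplasin A2, was the other large fall. EDA2R (ENSG00000131080, chromosome X, 66595637 to 66639298, minus strand) had 3.76, 3.10, 3.08 and 3.11 CPM in MARK3i replicates 1 to 4, against 10.8, 9.82, 10.1 and 8.66 CPM in Control replicates 1 to 4. MARK3i replicate 1 was the highest of its group and still below the lowest Control library. The gene was 3.02-fold lower (−1.59 ± 0.14, adjusted p = 5.19e-10) and was at a low level, with 44 to 69 counts per MARK3i library and 111 to 138 per Control library.

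BBC3, which encodes PUMA, a BH3-only protein that triggers the mitochondrial death programme, also fell. BBC3 (ENSG00000105327, chromosome 19, 47220822 to 47232766, minus strand) had 44.1, 55.8, 45.5 and 49.2 CPM in MARK3i replicates 1 to 4, against 71.0, 73.5, 83.9 and 87.5 CPM in Control replicates 1 to 4, so the groups did not overlap. It was 1.62-fold lower (−0.69 ± 0.08, adjusted p = 8.38e-08), and −0.48 with the GC adjustment. Control replicates 3 and 4 lay above Control replicates 1 and 2 for this gene. Of the death receptors, TNFRSF10B, which binds the ligand TRAIL, had 63.2, 65.0, 72.7 and 63.0 CPM in MARK3i replicates 1 to 4, against 90.2, 89.4, 85.5 and 90.4 CPM in Control replicates 1 to 4, without overlap (−0.43 ± 0.06, adjusted p = 2.67e-06). Exons of TNFRSF10B share 7.52% of their length with RHOBTB2 (opposite strand), and the sources used here do not say if reads were counted by strand. FAS, the receptor for the FAS ligand, was at 8.23 to 8.69 CPM in MARK3i and 9.02 to 12.2 CPM in Control libraries, a change of −0.29 ± 0.12, adjusted p = 0.0343. The FAS call ended without MARK3i replicate 2 or 4 or Control replicate 1 or 2 (adjusted p = 0.0559 to 0.164), with upper-quartile factors (adjusted p = 0.0543), with no filter (adjusted p = 0.0604) and with total counts (−0.19, adjusted p = 0.173), among others. It was kept in 12 of 20 alternatives, with adjusted p up to 0.375. A start inside the FAS locus had 1 exact half-site 113 to 122 bases before it (GGACAAGCCC; chr10:88991309-88991318, plus strand).

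APAF1, the scaffold on which cytochrome c assembles the caspase-activating apoptosome, moved the other way. APAF1 (ENSG00000120868, chromosome 12, 98645290 to 98735433, plus strand) had 42.2, 35.6, 48.4 and 37.4 CPM in MARK3i replicates 1 to 4, against 32.8, 27.4, 24.4 and 27.1 CPM in Control replicates 1 to 4, with all MARK3i libraries above all controls. It was 1.46-fold higher (0.55 ± 0.10, adjusted p = 4.81e-05), and 0.43 with the GC adjustment. The APAF1 change was 0.42 against Control replicates 1 and 2 alone and 0.66 against 3 and 4 alone. TP53INP1, a stress-induced nuclear protein that promotes p53-dependent death and autophagy, averaged 76.5 ± 5.92 CPM in MARK3i and 67.5 ± 5.84 CPM in Control libraries (SD), with overlapping groups (0.18 ± 0.07, adjusted p = 0.0342). That call ended without MARK3i replicate 3 or Control replicate 2, 3 or 4 (adjusted p = 0.0644 to 0.17), with no filter (adjusted p = 0.0569), with DESeq2 (adjusted p = 0.0564) and with the GC adjustment (0.06, adjusted p = 0.387), among others, and was kept in 11 of 20 alternatives, with adjusted p up to 0.484. PHLDA3, which competes with AKT for membrane lipids, averaged 30.1 ± 2.90 CPM in MARK3i and 35.4 ± 2.53 CPM in Control libraries (SD; −0.23 ± 0.08, adjusted p = 0.02), with overlapping groups. The PHLDA3 call ended without MARK3i replicate 3 or Control replicate 3 (adjusted p = 0.0654 and 0.0778), with total counts (−0.13) and with the GC adjustment (−0.06, adjusted p = 0.502), among others, and was kept in 14 of 20 alternatives. TRIAP1, a small mitochondrial protein that protects from apoptosis, was at 41.1 to 48.3 CPM in MARK3i and 49.8 to 50.8 CPM in Control libraries (−0.17 ± 0.07, adjusted p = 0.0479). Its call ended without any 1 of MARK3i replicates 2 and 3 and Control replicates 1 to 4 (adjusted p = 0.0687 to 0.141), with upper-quartile factors (adjusted p = 0.103), with no filter (adjusted p = 0.0781) and with total counts (−0.06, adjusted p = 0.444). It also ended against Control replicates 1 and 2 alone (adjusted p = 0.0956) and 3 and 4 alone (adjusted p = 0.152), and 8 of 20 alternatives kept it.

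**Figure D2:**
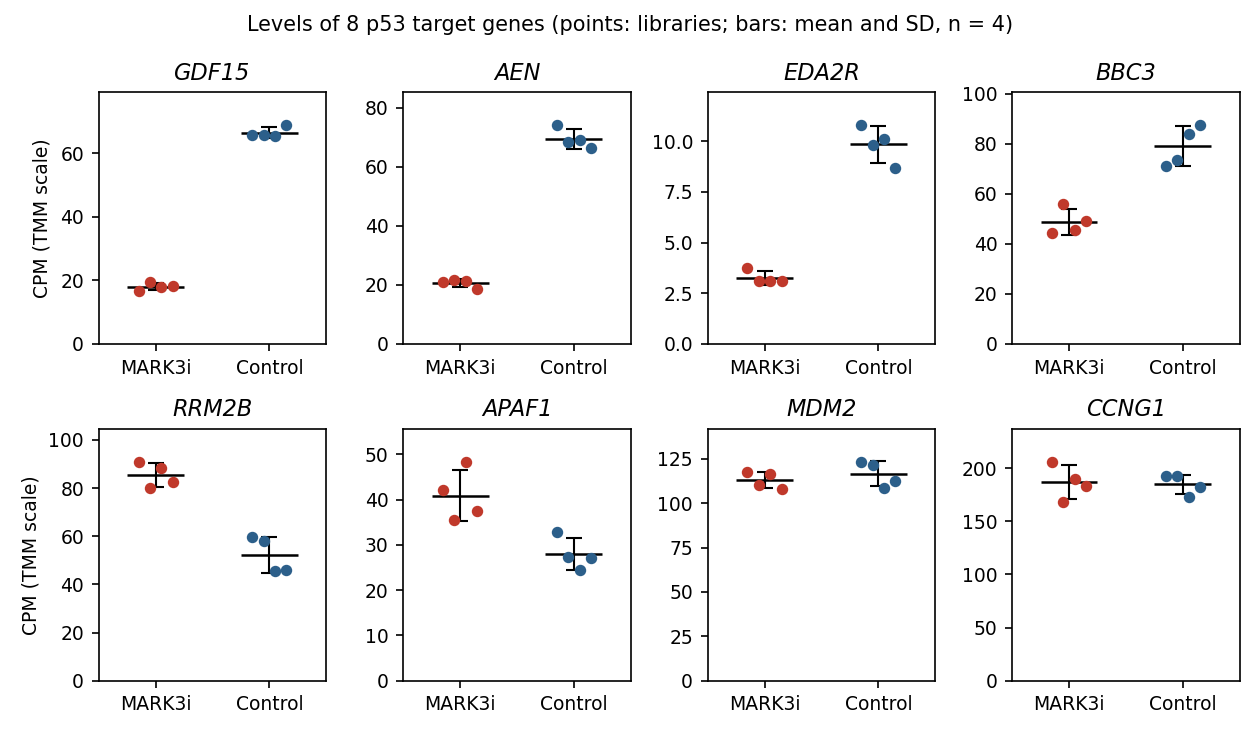
CPM on the TMM scale (y axis, from 0) of 8 p53 targets in the 4 MARK3i and 4 Control libraries (points), with the mean and SD as bars. GDF15, AEN, EDA2R and BBC3 are lower and RRM2B and APAF1 higher in MARK3i without overlap, while MDM2 and CCNG1 overlap.

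Of 5 genes that slow the cell cycle or growth, 4 were called (80%, against 58% of all tested genes). Of these 3 were lower and 1 higher, and the median of the 5 was −0.42. PLK3, a polo-like kinase of the stress response, showed the largest change of this group. PLK3 (ENSG00000173846, chromosome 1, 44800377 to 44805990, plus strand) had 5.09, 7.46, 6.79 and 7.61 CPM in MARK3i replicates 1 to 4, against 11.2, 11.1, 14.0 and 14.6 CPM in Control replicates 1 to 4. The groups did not overlap, MARK3i replicate 1 was the lowest, and the gene was 1.88-fold lower (−0.91 ± 0.13, adjusted p = 2.81e-06). Control replicates 3 and 4 lay above 1 and 2, and the PLK3 change was −0.73 against 1 and 2 alone and −1.08 against 3 and 4 alone. BTG2, an antiproliferative protein that recruits the CCR4-NOT deadenylase, had 11.5, 12.3, 10.02 and 10.7 CPM in MARK3i replicates 1 to 4, against 15.9, 14.3, 16.5 and 13.3 CPM in Control replicates 1 to 4, again without overlap (−0.42 ± 0.11, adjusted p = 0.00138). GADD45A, a stress protein that binds PCNA and restrains mitotic entry, was the gene that rose. GADD45A (ENSG00000116717, chromosome 1, 67685201 to 67688334, plus strand) had 23.2, 22.5, 21.4 and 21.9 CPM in MARK3i replicates 1 to 4, against 16.4, 16.2, 15 and 16.2 CPM in Control replicates 1 to 4. Every MARK3i library exceeded every Control library, and it was 1.39-fold higher (0.48 ± 0.09, adjusted p = 3.19e-05).

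PLK2, a polo-like kinase of centriole duplication, was at a low level, 2.07 to 3.15 CPM in MARK3i and 3.01 to 4.37 CPM in Control libraries, with overlap (−0.44 ± 0.19, adjusted p = 0.048). The PLK2 call ended without any 1 of MARK3i replicates 1, 2 and 4 and Control replicates 1, 3 and 4 (adjusted p = 0.0568 to 0.158), with total counts (−0.34, adjusted p = 0.134), with DESeq2 (adjusted p = 0.0728) and with limma-voom (adjusted p = 0.0516). It also ended with upper-quartile factors (adjusted p = 0.0663), with no filter (adjusted p = 0.0947) and against Control replicates 1 and 2 alone (−0.30, adjusted p = 0.327), and 7 of 20 alternatives kept it. ZMAT3, an RNA-binding zinc finger protein that alters splicing and transcript stability, averaged 24.0 ± 2.62 CPM in MARK3i and 23.2 ± 1.65 CPM in Control libraries (SD) and overlapped (0.04 ± 0.09, adjusted p = 0.699, approximate 95% interval −0.13 to 0.22). The PLK2 promoter held 1 exact half-site, 123 to 132 bases before the start (chr5:58460169-58460258, minus strand).

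PLK2: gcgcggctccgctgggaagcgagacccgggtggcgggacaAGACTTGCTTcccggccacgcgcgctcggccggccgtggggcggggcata

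Of 4 genes of DNA repair and nucleotide supply, 2 rose, 1 fell and 1 was not called, with a median of 0.25. The share called was 75%, against 58% of all tested genes. RRM2B, the p53-inducible small subunit of ribonucleotide reductase that supplies deoxynucleotides outside S phase, had the largest rise of all 28 tested targets. RRM2B (ENSG00000048392, chromosome 8, 102204502 to 102238961, minus strand) had 91.0, 80.1, 88.3 and 82.5 CPM in MARK3i replicates 1 to 4, against 59.5, 58.1, 45.4 and 46.0 CPM in Control replicates 1 to 4. It was 1.63-fold higher (0.71 ± 0.08, adjusted p = 7.88e-08), with no overlap although Control replicates 1 and 2 lay above 3 and 4. Against Control replicates 1 and 2 alone the change was 0.53, and against 3 and 4 alone 0.90. POLH, the polymerase eta that copies past ultraviolet lesions, had 26.9, 29, 27.1 and 27.4 CPM in MARK3i replicates 1 to 4, against 21.6, 20.3, 21.1 and 19.3 CPM in Control replicates 1 to 4. It was 1.34-fold higher without overlap (0.43 ± 0.08, adjusted p = 6.12e-05), and 3.12% of its exon length is shared with GTPBP2 on the opposite strand.

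Of the damage sensors of nucleotide excision repair, DDB2 fell and XPC did not pass the test. DDB2, the subunit that recognises ultraviolet lesions in chromatin, had 32.4, 33.7, 30.5 and 29.7 CPM in MARK3i replicates 1 to 4, against 45.1, 47.1, 45.2 and 49.5 CPM in Control replicates 1 to 4. All MARK3i libraries lay below all controls and the gene was 1.48-fold lower (−0.56 ± 0.07, adjusted p = 3.21e-07). XPC, which acts next at the same lesions, averaged 40.7 ± 1.07 CPM in MARK3i and 38.5 ± 1.18 CPM in Control libraries (SD), overlapped, and did not pass (0.08 ± 0.07, adjusted p = 0.324, approximate 95% interval −0.05 to 0.22). With total counts XPC passed as a rise (0.19, adjusted p = 0.0242), and 24.6% of its exon length is shared with the antisense gene XPC-AS1. Among the windows of the 29 genes, DDB2 alone held a pair of exact half-sites, separated by 1 base (small letter), at 6 to 26 bases after its second annotated start (chr11:47214979-47214999, plus strand).

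DDB2: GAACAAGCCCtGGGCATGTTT

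Genes of metabolism, mitochondria and secretion numbered 6, of which 5 were tested, 3 called lower, 1 higher and 1 not passing, with a median of −0.45. The share called was 80%, against 58% of all tested genes. GDF15, a secreted cytokine of the TGF-beta family released by stressed cells, had the largest fall of all tested targets. GDF15 (ENSG00000130513, chromosome 19, 18374731 to 18389176, plus strand) had 16.6, 19.4, 17.9 and 18.4 CPM in MARK3i replicates 1 to 4, against 65.7, 65.9, 65.5 and 69.0 CPM in Control replicates 1 to 4. The groups lay far apart, with little spread within either. It was 3.67-fold lower (−1.88 ± 0.07, adjusted p = 1.09e-16), and −1.69 with the GC adjustment. FDXR, the mitochondrial ferredoxin reductase that passes electrons to steroid-forming and iron-sulphur enzymes, had 24.1, 28.4, 24.6 and 26.4 CPM in MARK3i replicates 1 to 4, against 37.0, 36.6, 39.1 and 38.2 CPM in Control replicates 1 to 4. It was 1.45-fold lower without overlap (−0.54 ± 0.08, adjusted p = 1.61e-06), and −0.34 with the GC adjustment. An exact half-site (GGGCTTGCCC; chr17:74872996-74873005, minus strand) lay 2 to 11 bases before an FDXR start.

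SPATA18, also known as MIEAP, which acts in mitochondrial quality control, had 9.83, 12.4, 11.2 and 9.96 CPM in MARK3i replicates 1 to 4, against 13.7, 16.3, 14.3 and 15.2 CPM in Control replicates 1 to 4, a fall without overlap (−0.45 ± 0.11, adjusted p = 0.000856). SESN1, a sestrin that restrains mTORC1 signalling, rose. SESN1 (ENSG00000080546, chromosome 6, 108984309 to 109094846, minus strand) had 19.2, 18.5, 18.8 and 19.9 CPM in MARK3i replicates 1 to 4, against 14.5, 15.8, 13.5 and 12.9 CPM in Control replicates 1 to 4. All MARK3i libraries were above all controls, and it was 1.35-fold higher (0.43 ± 0.09, adjusted p = 0.000311). A promoter of SESN1 held 1 exact half-site, 40 to 49 bases before the start (chr6:109008989-109009077, minus strand).

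SESN1: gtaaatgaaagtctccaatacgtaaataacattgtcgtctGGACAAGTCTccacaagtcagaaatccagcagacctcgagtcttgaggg

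TP53I3, a quinone oxidoreductase gene, was at 1.19 to 1.73 CPM in MARK3i and 0.783 to 2.34 CPM in Control libraries, and its wide interval (−0.70 to 0.45) leaves its direction undetermined at this depth (−0.13 ± 0.29, adjusted p = 0.736). TIGAR, a phosphatase that lowers glycolytic flux, was the target that did not pass the filter on low counts, with 6, 13, 7 and 5 counts in MARK3i replicates 1 to 4 and 7, 2, 2 and 13 in Control replicates 1 to 4. Of its annotated exon length 18.1% is shared with another gene model on the same strand (ENSG00000285901), which had 0 CPM.

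Levels can be compared between genes per kilobase of exon. CCNG1 was at 60.4 CPM per kilobase in MARK3i and 59.7 in Control libraries, and MDM2 at 13.6 in MARK3i and 14.0 in Control. GDF15 was at 8.66 CPM per kilobase in MARK3i against 31.9 in Control, and AEN at 3.45 in MARK3i against 11.6 in Control. RRM2B was at 15.9 CPM per kilobase in MARK3i and 9.69 in Control. These levels use the full annotated exon length, so genes with many alternative exons are understated.

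The targets called higher and lower had different median GC content. The calls rest on the fold change, which also varied with GC content among all tested genes. Transcript GC content had a median of 40.6% (range 39.3 to 57) in the 6 targets called higher, 51.4% (39.4 to 64.5) in the 15 called lower and 43.2% in the 7 not called, against 48.8% in all tested genes with a value. Across the 28 targets the Spearman correlation of GC content with the log2 fold change was −0.58, and across 16360 tested genes it was −0.20. The genes share the same 8 libraries and are not independent replicates, so no p is given. After each library's trend on GC content was removed, the correlation was −0.40 across the targets and −0.004 across all genes. In that setting 15 targets were called lower and 5 higher, beside 4681 and 5220 of all tested genes. GADD45A, at 57% GC, rose, and EDA2R, at 46.0%, fell, so composition and direction did not go together in every target.

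**Figure D3:**
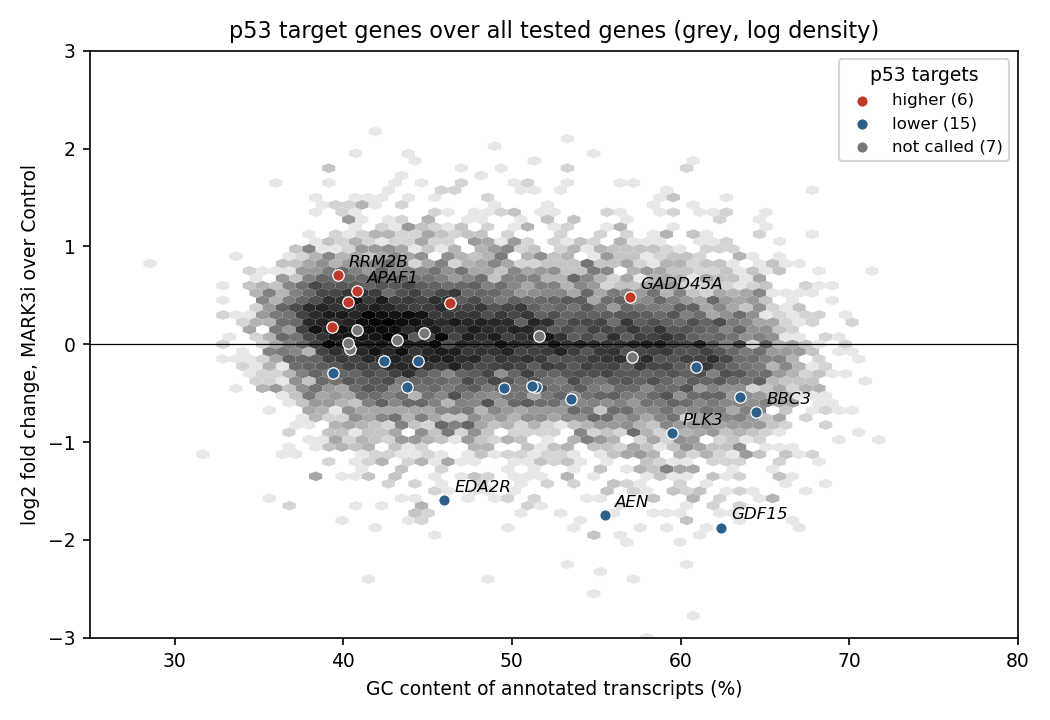
Log2 fold change of MARK3i over Control (y axis) against GC content of the annotated transcripts in percent (x axis), with the 28 tested p53 targets as coloured points over the density of all tested genes in grey. Most targets called higher lie near 40% GC, while GDF15, BBC3 and PLK3 lie near 60%.

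A wider list of 87 other genes described as p53 targets, of which 76 were tested, held more genes called higher than lower. Of the 76, 31 were higher, 24 lower and 21 not called, around a median of 0.09. The share called was 72.4%, with 40.8% higher and 31.6% lower, beside 58%, 29.8% and 28.3% of all tested genes. With total counts 37 were higher and 19 lower, a setting in which all tested genes also had more rises (6274) than falls (3596). With the GC adjustment 30 were higher and 20 lower, beside 5220 and 4681 of all tested genes. The 5 higher genes with the smallest p were SERTAD1 (1.247 ± 0.096), which binds cyclin-dependent kinase CDK4, the integrin gene ITGA3 (0.96 ± 0.08), the immediate early response gene IER5 (0.82 ± 0.07), the lysosomal fucosidase gene FUCA1 (0.84 ± 0.07) and the peptidase gene PGPEP1 (0.85 ± 0.09). SERTAD1 averaged 29.8 ± 2.63 CPM in MARK3i and 12.6 ± 1.39 CPM in Control libraries (SD). The 5 lower genes with the smallest p were SFN, which encodes stratifin, a protein that holds mitotic kinases in the cytoplasm (−1.38 ± 0.05), the ferrireductase gene STEAP3 (−3.50 ± 0.19), SYTL1 (−1.21 ± 0.09), the adaptor gene TRAF4 (−0.69 ± 0.06) and the macrophage growth factor gene CSF1 (−2.32 ± 0.22). SFN averaged 173 ± 1.74 CPM in MARK3i and 451 ± 18.3 CPM in Control libraries (SD), and STEAP3 averaged 0.888 ± 0.199 CPM in MARK3i and 9.88 ± 1.07 CPM in Control libraries. For each of these 10 genes the MARK3i libraries lay beyond all controls, which largely follows from the choice by smallest p. Of the 76 tested, 64.5% did not overlap between groups, beside 51% of all tested genes.

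Regulators that act on p53 protein had a median absolute log2 fold change of 0.18, beside 0.33 for all tested genes. Of 24 tested, 6 were higher, 9 lower and 9 not called, around a median of −0.07. The share called, 62.5%, was near the 58% of all tested genes. With total counts 8 were higher and 5 lower, beside 6274 and 3596 of all tested genes. With the GC adjustment 6 were higher and 12 lower, beside 5220 and 4681. PPP1R13L, the inhibitory ASPP family member that binds p53, had the largest fall (−0.86 ± 0.07, adjusted p = 4.82e-10). The arginine methyltransferase gene PRMT5 (−0.58 ± 0.06) and the checkpoint kinase genes CHEK1 (−0.62 ± 0.07), CHEK2 (−0.46 ± 0.07) and ATR (−0.36 ± 0.09) were also lower, all without overlap. The deacetylase gene SIRT1 was higher (0.49 ± 0.08, adjusted p = 4.95e-06). Smaller rises were found for the acetyltransferase coactivators CREBBP (0.23 ± 0.07) and EP300 (0.22 ± 0.08) and for the p53-binding proteins TP53BP2 (0.24 ± 0.08) and TP53BP1 (0.19 ± 0.07), of which TP53BP1 alone did not overlap between groups. The named regulators were picked by smallest p, a choice that favours separated libraries. Of all 24 tested, 50% did not overlap, beside 51% of all tested genes.

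**Figure D4:**
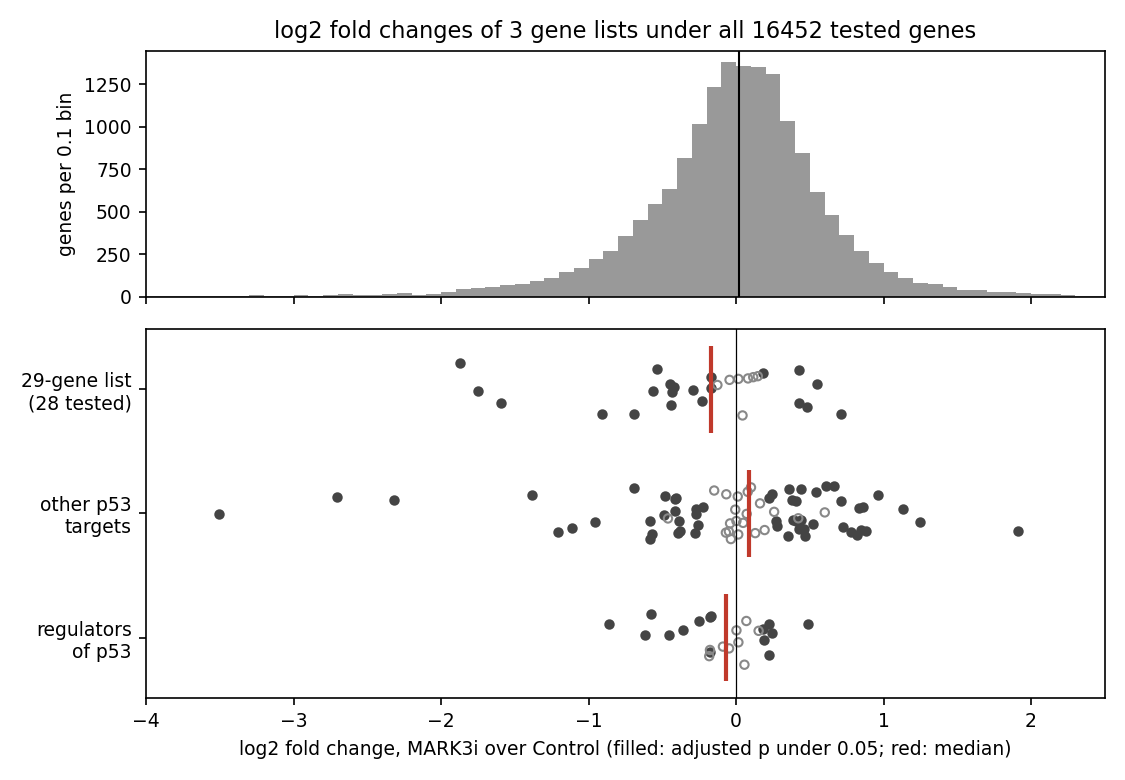
The upper panel counts all 16452 tested genes by log2 fold change in bins of 0.1, with their median of 0.02 as a line, and the lower panel places the genes of 3 lists (filled where called, open where not) with each list's median in red. The 29-gene list has its median at −0.17, the other p53 targets at 0.09 and the regulators at −0.07.

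**Figure D5:**
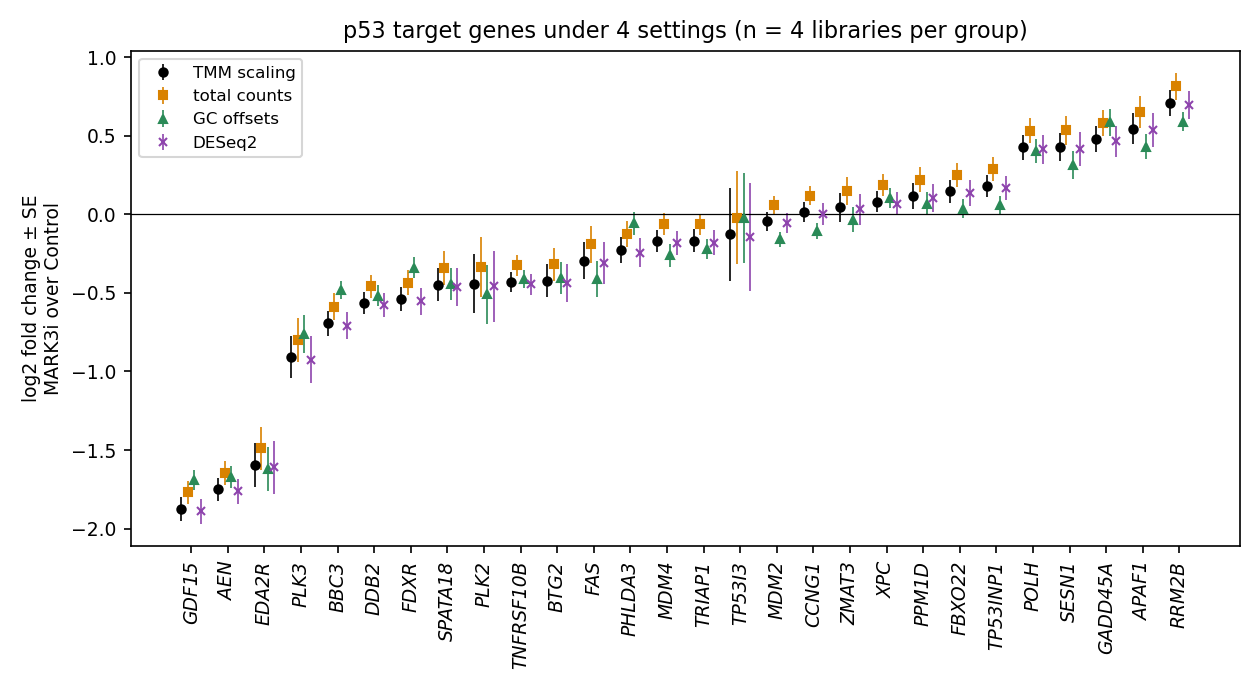
Log2 fold change ± SE of the 28 tested p53 targets (n = 4 libraries per group) with TMM scaling, total counts, offsets for GC content and DESeq2. GDF15, AEN, EDA2R, PLK3 and BBC3 stay below 0 and RRM2B, APAF1 and GADD45A above 0 in all 4, while MDM2, CCNG1 and ZMAT3 straddle 0.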

How the data were processed

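Read counts per Ensembl gene were deposited for 8 libraries of 22Rv1 cells, 4 MARK3i and 4 Control. The authors aligned to hg38 and counted with featureCounts, per the submitters' processing notes, which also name DESeq2. The sources used here do not state the aligner, annotation or strand setting. Symbols, positions, exon length and GC content came from GENCODE 44, which held 58207 of 58735 listed IDs.

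Genes were kept with filterByExpr (16452), scaled with TMM and tested with edgeR 4.0.16 (R 4.3.3) by quasi-likelihood, with Benjamini-Hochberg adjustment over all of them. The standard error is the log2 fold change divided by the square root of F, and approximate 95% intervals are 1.96 standard errors wide on each side. The biological coefficient of variation was 7.2% and the median standard error 0.10. Alternatives were other scalings and filters, DESeq2 1.42.0, limma-voom 3.58.1, GC offsets, a replicate block and leaving out libraries. The scripts were tested on simulated data, with 50 changed genes per fold among 16257. There 38% of 1.25-fold, 84% of 1.5-fold and 96% of 2-fold changes were called in the right direction. Far fewer genes changed there than were called here, so these shares do not carry over directly. The p53 targets and lists were chosen with earlier results of these data known. Named genes were all 29 targets and, per further list, up to 5 called genes in each direction with the smallest p. A further marker list is not reported here.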

Additional observations from a re-analysis of the deposited data

Results flagged for a closer look

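Of 56 groups of 4 libraries examined over the 28 tested p53 targets, 3 held a library whose gap to the nearest other library took up an unusually large share of the group's range, and chance gives about 1 in 20 such groups. GADD45A was at 15 CPM in Control replicate 3, against 16.2 to 16.4 CPM in the other Control libraries. GDF15 was at 69.0 CPM in Control replicate 4, against 65.5 to 65.9 CPM in the others. EDA2R was at 3.76 CPM in MARK3i replicate 1, against 3.08 to 3.11 CPM in the other MARK3i libraries. All 3 genes kept their call in each of the 20 alternative settings.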

How the results depend on the processing

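Over 20 alternatives, 5 of 6 rises and 10 of 15 falls among the p53 targets kept their call, and the exceptions were TP53INP1, FAS, MDM4, PHLDA3, PLK2 and TRIAP1. The median log2 fold change of the targets moved to −0.063 with total counts, with 9 higher and 10 lower, where the median of all tested genes was 0.126 in place of 0.021. On leaving out 1 library at a time it ranged from −0.231 to −0.158, with 5 to 7 higher and 11 to 13 lower. Of all genes tested in those fits 4489 to 4757 were higher and 4378 to 4766 lower. Directions turned for 4 genes that did not pass the test: MDM2, at 0.061 with total counts and 0.027 against Control replicates 3 and 4 alone, CCNG1, at −0.103 with GC offsets (with and without the replicate block), −0.054 against Control replicates 1 and 2 alone and −0.053 to 0.066 (−0.018 and −0.003 among them) on leaving out a library, ZMAT3, at −0.035 with GC offsets (with and without the block), −0.041 against Control replicates 1 and 2 alone and −0.027 to 0.101 (−0.001 among them) on leaving out a library, and TP53I3, at 0.04 against Control replicates 1 and 2 alone and −0.353 to 0.133 (0.003 among them) on leaving out a library. The cause was not tested. The comparisons with a pair of Control libraries were chosen after seeing the data. Same-numbered libraries correlated at 0.131, −0.088, −0.053 and 0.084, and differently numbered ones at −0.161 to 0.129. The numbers thus showed no consistent pairing, and whether they mark a shared culture or day is not known. MARK3i replicates 1 and 3 correlated at 0.027 to 0.131 with Control replicates 1 and 2, and at −0.138 to −0.053 with 3 and 4. MARK3i replicates 2 and 4 correlated at −0.161 to −0.056 with Control replicates 1 and 2, and at 0.084 to 0.129 with 3 and 4. A block by replicate number does not follow these groups, and their source was not tested. A replicate block gave 6 targets higher and 13 lower with a median of −0.17, and 5 and 15 together with GC offsets. Of all tested genes 4912 were higher and 4684 lower with the block, and 5225 and 4695 together with GC offsets. Under the block alone the calls of TRIAP1 (adjusted p = 0.0531) and PLK2 (adjusted p = 0.0584) ended. Low counts limit TIGAR, which was not tested, and TP53I3 and PLK2, with the widest standard errors. The source of these low counts was not tested.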
